A study of Drosophila melanogaster with 69 samples.

Results

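Maternal patterning RNAs are made in the nurse cells of the ovary, the germ cells that feed the oocyte, and are carried into the egg to set the body axes and the germ plasm of the embryo. Levels of 10 such genes, osk, bcd, nos, grk, orb, gcl, pgc, exu, swa and bru1, are described here of 17807 genes that the deposited files list for each library. The genes were found by FlyBase symbol, with nos listed under its full name nanos. All 10 were present in all 69 libraries.

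Bulk RNA-seq, in which RNA of all cells of an organ is sequenced together, was performed on mRNA captured with oligo(dT) from whole ovaries and testes. The 2 strains were Oregon R, a laboratory wild type called WT here, and chinmoST, a chinmo mutant strain in which the transcription factor Chinmo is lost from the somatic cyst stem cell lineage of the testis and these cells turn into follicle-like cells of the ovary. The genotype label of the chinmoST libraries gives the allele Sod1[X-39] with e[1], carried over the balancer TM3 with Sb[1] and Ser[1], and the WT label has none of these, so the strains differ by more than chinmo. Flies were raised at 25 °C and taken at days 1, 3, 5, 7, 9 and 11, and the titles of the day 1 libraries call that time day 0. Each group of strain, organ and day had 3 libraries, except that WT ovaries had 2 at days 1, 7 and 11. Each library pooled the organs of many flies. The protocol text names ovaries for the wild type alone, while the labels give 18 libraries of chinmoST ovaries. Nothing in the labels ties a replicate to a separate cohort, so that p-values measure the spread between these pools.

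Several of these RNAs mark an end of the egg. Bicoid RNA (bcd) is held at the anterior of the oocyte and its protein patterns the head and thorax. Oskar (osk) builds the germ plasm at the posterior, where RNAs of nanos (nos), germ cell-less (gcl) and polar granule component (pgc) are gathered. The Gurken ligand (grk) signals through the EGF receptor to the follicle cells and sets the dorsal side. The other members encode proteins that handle such RNAs. Exuperantia (exu) and Swallow (swa) are needed to localize bcd RNA, Orb is the oocyte's cytoplasmic polyadenylation element binding protein, and Bruno 1 (bru1) represses translation of osk RNA. Bruno 1 and Orb are also present in the male germ line, and Exuperantia is needed for spermatogenesis.

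Libraries held between 32462418 and 181988641 estimated counts, with a median of 81149428. The organ labels fitted their markers, with a summed level of 7 spermatid genes of at least 6485 TPM (a gene's share of the library's transcripts, scaled for length) in testes. In ovaries this sum was at most 6.85 TPM except in replicate 1 of WT ovaries at day 1, where it was 247 TPM. Testes also held RNA of the male accessory gland, another organ, as the sum of 8 of its markers. In WT testes that sum was 1775 to 2626 TPM at day 1 and 139 to 159 TPM at day 11. In chinmoST testes it was 924 to 7007 TPM at day 1 and 50.9 to 575 TPM at day 11. Its part in the comparisons between days was not tested. In 12 libraries, counts fell with gene length against the other libraries of the organ, with a correlation of -0.65 to -0.37 across genes. These were 5 WT ovaries, 3 chinmoST ovaries and replicate 1 of WT testes at days 3, 5, 7 and 9. Gene levels are also compared without them for WT ovaries against WT testes, ovary genotype, and chinmoST ovaries at day 3 against day 1. The transcript length test between WT organs was not repeated without them. In the other direction, counts rose with gene length in every chinmoST testis of days 7, 9 and 11, at correlations of 0.16 to 0.31. WT testes outside the 12 libraries were at -0.11 to 0.090. Replicate 3 of chinmoST testes at day 1, at -0.30, was not counted among the 12. Gene length correction, an alternative fit that takes such a trend out of each library, is reported for testes where it changed a call. At day 11 it changed none. The source of the rising trend was not tested. Whole-testis chinmo RNA was 27.3 to 113 TPM in WT and 31.7 to 91.4 TPM in chinmoST, and since the lesion of the allele is not known this checks no label.

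The genes lie apart in the genome. In the annotation of the BDGP6 assembly, osk (FBgn0003015) is on chromosome 3R from 8935126 to 8938395, bcd (FBgn0000166) on 3R from 6755842 to 6759466, nos (FBgn0002962) on 3R from 19157238 to 19160202 and orb (FBgn0004882) on 3R from 23260610 to 23280856. The grk gene (FBgn0001137) is on 2L from 8431086 to 8433598 and bru1 (FBgn0000114) on 2L from 12175004 to 12313438. The gcl gene (FBgn0005695) is on 2R from 8724258 to 8728999, pgc (FBgn0016053) on 2R from 22330200 to 22332813 and exu (FBgn0000615) on 2R from 20667427 to 20671083. The swa gene (FBgn0003655) is on X from 6363418 to 6365708. All are annotated as protein coding.

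To place the members between the sexes, WT ovaries were first compared with WT testes, as a mean over days. Of the 10 members, 7 were called higher in ovaries and 1 lower, where 39.6% and 49.1% of all 14995 genes tested were called. Calls needed a fold change of 1.5 or more and an adjusted p below 0.05 in edgeR's quasi-likelihood test. Levels of osk in WT testes ranged from 0.010 to 0.60 TPM with a median of 0.18 TPM, against 176 to 1674 TPM in WT ovaries. Levels of pgc were 0 to 0.27 TPM in WT testes, with 8 of 18 libraries at 0 and at most 11.0 estimated counts in any, and 136 to 659 TPM in WT ovaries. The anterior RNA bcd was at 0.17 to 0.47 TPM in WT testes and 51.5 to 171 TPM in WT ovaries, and swa at 0.28 to 0.93 TPM and 177 to 340 TPM. These 4 RNAs stayed below 1 TPM in every WT testis and did not overlap between the organs.

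The remaining ovary-enriched RNAs were low in WT testes but above that level. The posterior determinant nos was at 1.13 to 4.33 TPM in WT testes with a median of 3.11 TPM, against 120 to 1390 TPM in WT ovaries. The nuclear envelope protein gene gcl was at 1.19 to 2.54 TPM against 84.3 to 175 TPM, and the ligand gene grk at 1.04 to 1.65 TPM against 10.1 to 55.8 TPM. The fitted log2 difference between ovary and testis was 7.62 ± 0.39 (SE) for nos, 5.96 ± 0.10 for gcl and 4.28 ± 0.13 for grk. With the WT libraries that have a length trend left out and days 1 to 9 averaged, it was 5.73 for nos, 5.34 for gcl and 4.10 for grk, all still called.

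The other regulators differed from these and from each other. The exu RNA was higher in WT testes, at 1447 to 2725 TPM against 148 to 403 TPM in ovaries, a fitted log2 difference of -3.26 ± 0.14 for ovary minus testis (edgeR adjusted p = 2.8e-17) and -4.07 without the libraries with a length trend. It made up 67.8% of the summed TPM of the 10 genes in WT testes and 7.58% in WT ovaries. Levels of orb were 308 to 523 TPM in WT testes and 85.3 to 466 TPM in ovaries, and those of bru1 231 to 1066 TPM and 627 to 957 TPM. Neither was called, with log2 differences of -0.38 ± 0.15 and 0.26 ± 0.19. Both depend on the settings. Without the libraries with a length trend orb was called lower in ovaries at -0.72 and bru1 at -0.88, and with all libraries DESeq2 called both lower, at -1.58 and -0.97. For orb limma (-1.02), the fit without a filter (-0.93) and scaling by library size alone (-0.68) also gave a call. For bru1 these gave none, at 0.53, -0.30 and -0.09.

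The genotypes were then compared in testes at each day, to see when maternal RNAs changed in the mutant. At day 1 no member was called, where 2.21% of all 14910 genes tested were called higher and 3.39% lower in chinmoST. Of the 10 members, exu and swa had an unadjusted edgeR p under 0.05 at that day, and DESeq2 and limma called none. At day 3 nos alone was called higher (6.59% of genes higher and 12.5% lower). Its call was lost when only the groups compared were fitted (edgeR adjusted p = 0.081), and DESeq2 and gene length correction called swa as well (adjusted p = 0.034 and 0.043). At day 5 nos, grk and gcl were called higher (12.7% and 15.1%), and grk and gcl were not when only the groups compared were fitted (edgeR adjusted p = 0.099 and 0.10). At day 7 osk, nos, grk, gcl and swa were called higher (27.8% and 22.8%). At days 9 and 11 bcd, nos, grk, gcl and swa were called higher and orb, exu and bru1 lower. The background was 30.3% higher and 28.0% lower at day 9 and 32.1% and 29.9% at day 11, beside 5 and 3 of 10 members. The median log2 fold change of the members at day 11 was 1.17, against 0.093 over all genes. In bulk tissue, fewer cells of a type and less RNA per cell cannot be told apart.

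**Figure D1:**
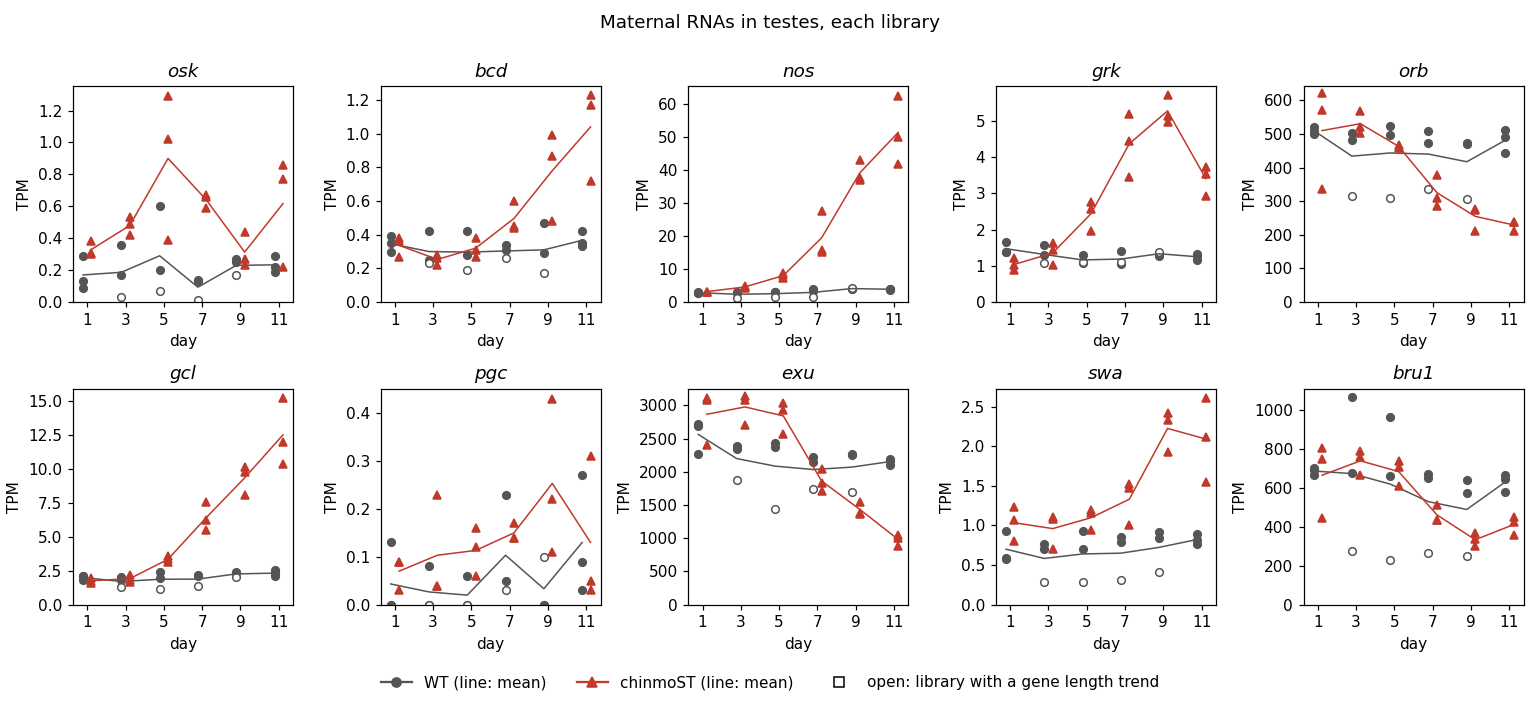
Level in TPM (vertical axes, linear) of each RNA in testes against day, with a point per library, circles for WT, triangles for chinmoST, lines for group means and open symbols for libraries whose counts fell with gene length. The chinmoST libraries for nos climb from 3.13 to 3.19 TPM at day 1 to 41.7 to 62.3 TPM at day 11, while those for exu drop to 890 to 1046 TPM.

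The nanos RNA, a posterior determinant that germline stem cells of both sexes also need, had the largest fold change of the members at days 3, 5, 9 and 11 among those called. In chinmoST testes the 3 libraries of day 1 were at 3.13, 3.19 and 3.14 TPM, those of day 3 at 4.87, 4.71 and 4.19 TPM, and those of day 5 at 8.72, 7.18 and 8.13 TPM. By day 7 the level was 15.7, 27.5 and 15.1 TPM, on day 9 it was 37.4, 36.9 and 43.0 TPM, and on day 11 it reached 62.3, 41.7 and 50.0 TPM. All 3 mutant libraries lay above all 3 WT libraries on every day. WT testes were at 2.80, 3.10 and 2.65 TPM at day 1 and at 4.04, 3.73 and 3.91 TPM at day 11. The fitted log2 fold change between genotypes on the 6 days in turn was 0.27 ± 0.25 (SE, n = 3 against 3), 1.02 ± 0.25, 1.51 ± 0.25, 2.52 ± 0.26, 2.96 ± 0.26 and 3.52 ± 0.27 (edgeR adjusted p on day 11 = 2.5e-11). The genotype difference was thus larger at day 11 than at day 1 by 3.25 ± 0.36, with an edgeR adjusted p of 5.7e-08 in the test of that difference.

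The gcl RNA, whose protein is needed in the embryo to form the primordial germ cells, followed the same order of days at a lower level. The chinmoST libraries were at 1.95, 1.71 and 1.63 TPM on day 1, 3.59, 3.11 and 3.33 TPM on day 5, and 6.21, 7.57 and 5.46 TPM on day 7. By day 11 they stood at 15.2, 10.3 and 11.95 TPM. WT testes never exceeded 2.54 TPM, so that the genotypes did not overlap from day 5 on. The log2 fold change was 2.23 ± 0.16 at day 11 (edgeR adjusted p = 6.8e-12), and that at day 5, 0.69 ± 0.15, was 0.55 and no longer called without replicate 1 of WT testes at day 5, a library with a length trend. With gene length correction the day 5 value was 0.48 and not called either. The difference between genotypes grew by 2.29 ± 0.22 from day 1 to day 11 (edgeR adjusted p = 9.2e-09).

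The grk RNA rose to day 9 and was lower again at day 11. In chinmoST testes it was at 1.22, 1.02 and 0.88 TPM at day 1, below the WT libraries at 1.65, 1.38 and 1.39 TPM, although that difference was not called. It reached 3.46, 5.19 and 4.45 TPM at day 7, 5.14, 4.96 and 5.72 TPM at day 9 and 3.73, 3.54 and 2.94 TPM at day 11. The day 11 libraries lay below those of day 9 and above those of WT, at 1.26, 1.34 and 1.15 TPM. The log2 fold change between genotypes was 1.68 ± 0.19 at day 9 and 1.25 ± 0.19 at day 11 (edgeR adjusted p = 1.9e-06), and it grew by 1.64 ± 0.27 between days 1 and 11 (edgeR adjusted p = 1.2e-05). The change from day 9 to day 11 was not tested.

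The bcd and swa RNAs rose late and stayed low. The bcd RNA was at 0.36, 0.38 and 0.27 TPM in chinmoST testes at day 1 and at 1.17, 0.72 and 1.23 TPM at day 11, from 172, 140 and 218 estimated counts. WT testes at day 11 were at 0.33, 0.42 and 0.35 TPM and did not overlap with the mutant. The log2 fold change was 1.30 ± 0.28 at day 11 (edgeR adjusted p = 0.00016). The swa RNA was at 2.61, 1.55 and 2.11 TPM in chinmoST testes at day 11 against 0.89, 0.76 and 0.82 TPM in WT, a log2 fold change of 1.15 ± 0.32 (edgeR adjusted p = 0.0024). For swa the genotype difference already stood at 0.68 ± 0.32 at day 1, not called, and its growth to day 11 by 0.47 ± 0.45 was not called either (edgeR adjusted p = 0.39). Its call at day 7 was lost without replicate 1 of WT testes at day 7, at a log2 fold change of 0.54, and without either of replicates 1 and 2 of chinmoST at that day, at 0.79 and 0.75. That call was also lost with gene length correction (0.60), with limma (0.51) and when only the groups compared were fitted (0.80).

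The osk and pgc RNAs, the RNAs of the germ plasm organizer and of a repressor of transcription in the embryonic germ cells, remained at low counts. Levels of osk in chinmoST testes ranged from 0.22 to 1.29 TPM over all days, from 34.0 to 230 estimated counts, and at day 11 they were 0.86, 0.22 and 0.77 TPM against 0.29, 0.22 and 0.19 TPM in WT. The genotypes touched at 0.22 TPM at that day and the log2 fold change of 1.20 ± 0.66 was not called. In the edgeR fit of all testes it was called at day 7 alone, at 2.70 ± 0.73 (edgeR adjusted p = 0.0025), where the mutant was at 0.59, 0.67 and 0.66 TPM and WT at 0.010, 0.13 and 0.14 TPM. Leaving out replicate 2 of WT testes, the highest WT library at those days, also brought a call at day 3 (log2 fold change 2.55) and at day 5 (2.62), and leaving out replicate 1 of chinmoST did so at day 5 (1.96). DESeq2 and scaling by library size alone called it at day 5 (1.61 and 1.68), and the fit of only the groups compared at day 11 (1.18). The pgc RNA had 1.00 to 13.9 estimated counts in a chinmoST testis library, and no difference was called at any day in that fit. With gene length correction it was called at day 9, at 2.71 (edgeR adjusted p = 0.041). Without replicate 1 of WT testes at day 9, which left 2 WT libraries at 0 counts, a difference was called at that day (edgeR adjusted p = 0.021), and its fitted size is no bound. At these counts a change of several fold would not be resolved, since its standard error at day 11 was 1.00 on the log2 scale.

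The RNA regulators fell in the mutant from the high levels of the testis. The exu RNA was at 3087, 3110 and 2406 TPM in chinmoST testes on day 1 and 2712, 3142 and 3080 TPM on day 3. The libraries of day 9 were at 1371, 1549 and 1381 TPM and those of day 11 at 890, 1010 and 1046 TPM. WT testes were at 2193, 2107 and 2164 TPM at day 11. At days 3 and 5 the mutant libraries lay above WT, with a log2 fold change of 0.46 ± 0.12 at day 3 (edgeR adjusted p = 0.0066) that is under the fold required, and at days 9 and 11 below. The log2 fold change at day 11 was -1.33 ± 0.12 (edgeR adjusted p = 6.0e-10), and the genotype difference moved by -1.61 ± 0.17 between days 1 and 11 (edgeR adjusted p = 4.4e-08).

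The orb RNA was at 622, 571 and 337 TPM in chinmoST testes at day 1 and at 213, 238 and 238 TPM at day 11, against 510, 443 and 490 TPM in WT at day 11. The genotypes overlapped to day 7 and did not at days 9 and 11, with a log2 fold change of -0.77 ± 0.25 and -1.10 ± 0.25 (edgeR adjusted p = 0.0085 and 0.00033). At day 7 the difference of -0.50 ± 0.25 was not called, and without replicate 1 of WT testes at day 7, which has a length trend, it was called at -0.71. With gene length correction orb (-0.98), exu (-0.73) and bru1 (-0.83) were all called lower at day 7. The bru1 RNA was at 357, 423 and 451 TPM in chinmoST testes at day 11 against 643, 575 and 667 TPM in WT, a log2 fold change of -0.81 ± 0.34 (edgeR adjusted p = 0.036). Leaving out any of the 3 WT libraries or replicate 1 or 3 of chinmoST at day 11 ended that call, at log2 fold changes of -0.76 to -0.86 and adjusted p of 0.053 to 0.091. At day 9, when the genotypes overlapped, the call for bru1 at -0.79 ± 0.34 was likewise lost without replicate 2 or 3 of WT or any replicate of chinmoST at that day, at -0.58 to -0.87.

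**Figure D2:**
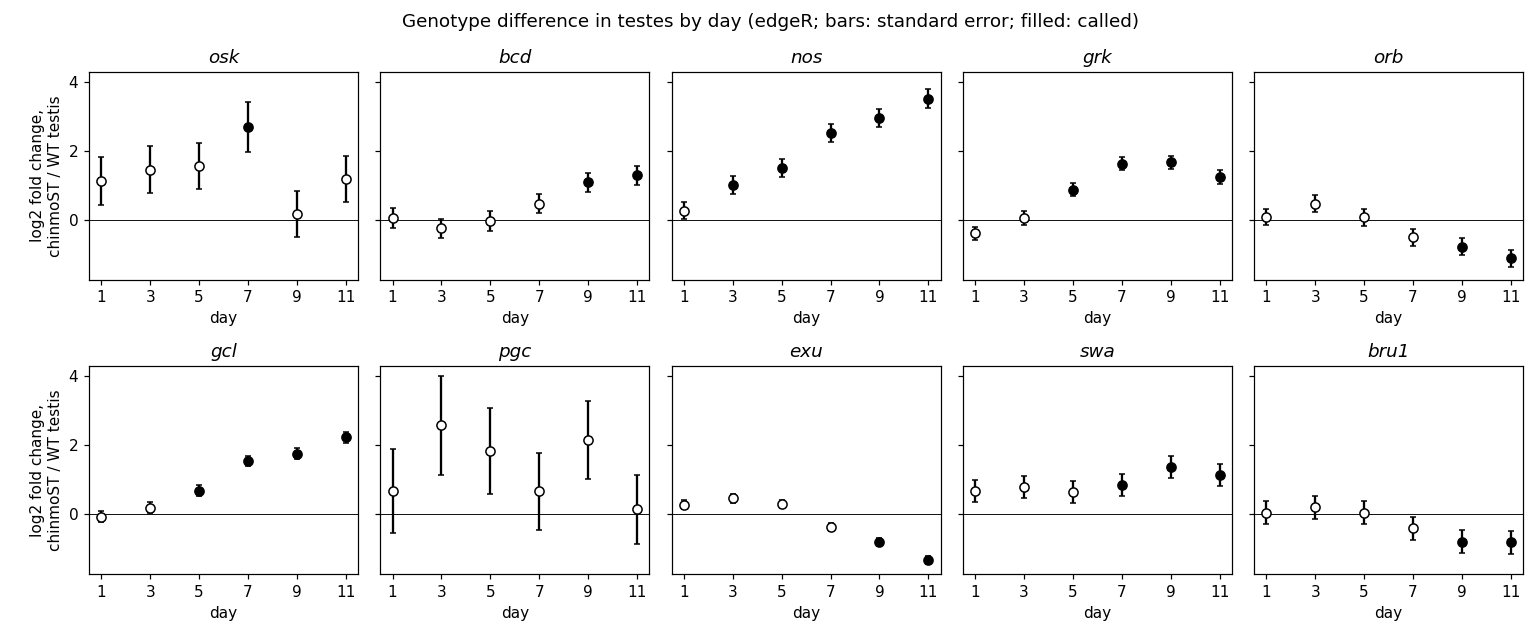
Log2 fold change of chinmoST over WT testes against day for each RNA, from edgeR, with bars for the standard error and filled points where the difference was called. For nos it grows from 0.27 to 3.52, for exu it passes from 0.46 at day 3 to -1.33 at day 11, and for pgc the bars are about 1 log2 unit or wider.

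Within chinmoST testes, day 11 was also compared with day 1. Here bcd, nos, grk and gcl were higher and orb, exu and bru1 lower, 4 and 3 of 10 members where 34.2% and 31.5% of all genes were. The largest of these changes were 3.62 ± 0.27 for nos and -1.93 ± 0.13 for exu on the log2 scale. In WT testes no member was called between day 11 and day 1, where 0.684% of all genes were called in either direction. Of the members, exu had an unadjusted edgeR p under 0.05 there, with a log2 difference of -0.33 ± 0.12, and DESeq2 and limma called none. In the test of the difference between genotypes at day 11 minus that at day 1, 4 members were called higher and 2 lower, where 28.1% and 25.4% of all genes were. These were bcd, nos, grk and gcl, and orb and exu. For bcd the growth was 1.24 ± 0.39 and for orb it was -1.19 ± 0.35. For bru1 it was -0.86 ± 0.48 and not called, although it was with gene length correction (-1.28, edgeR adjusted p = 0.00097) and when only the groups compared were fitted (-0.92, edgeR adjusted p = 0.00043).

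Markers of germ cell stages also differed between genotypes at day 11. The summed level of 5 markers of early male germ cells (vas, bam, bgcn, stg and zpg, with esg of that list of 6 not matched) was 46.1 to 52.6 TPM in WT and 166 to 238 TPM in chinmoST testes at day 11, with none below 0.1 TPM. The same genes are active in the ovary, where the sum was 291 to 1261 TPM. The sum of 7 spermatid markers was 17370 to 18510 TPM in WT and 6485 to 7777 TPM in chinmoST testes at day 11, and that of 9 spermatocyte markers 1422 to 1530 TPM and 706 to 828 TPM. The sum of 5 markers of somatic cyst and follicle cells (tj, zfh1, eya, Fas3 and cas) was 51.1 to 56.1 TPM and 119 to 138 TPM, with 1 of the 5 below 0.1 TPM in WT. The sum of 11 yolk, vitelline membrane and chorion genes of late follicle cells was 4.22 to 6.51 TPM in WT and 33.3 to 167 TPM in chinmoST testes at day 11, against at least 2177 TPM in ovaries. At day 11 nos, gcl and grk were thus higher where early germ cell markers were, and exu, orb and bru1 lower where spermatocyte and spermatid markers were. Other days did not all follow this. At day 5 the median spermatocyte sum was 984 TPM in chinmoST and 1509 TPM in WT, while mean exu was 2843 and 2087 TPM. From day 9 to day 11 in chinmoST, mean grk went from 5.27 to 3.40 TPM and the median early germ cell sum from 176 to 187 TPM. The part of cell composition in each result was not tested.

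How far the mutant testis had come towards the level of the ovary was read from chinmoST ovaries of the same age. At day 11, 7 members were higher in chinmoST ovaries than in chinmoST testes and 1 lower, where 23.1% and 47.6% of 15293 genes were. The mutant testis held 14.8% of the ovary's mean TPM for nos, 12.7% for grk and 7.02% for gcl, against 1.12%, 4.65% and 1.30% in WT testes at day 11. For swa it was 0.838%, for bcd 0.707%, for osk 0.0689% and for pgc 0.0621%. The ovary exceeded the mutant testis by a log2 difference of 10.41 ± 0.86 for osk, 7.04 ± 0.42 for bcd and 2.65 ± 0.58 for nos. The exu RNA was the member still lower in the ovary, at 221 to 252 TPM, by -2.55 ± 0.24. For orb and bru1 the mutant testis was at 72.0% and 48.5% of the ovary's mean and the differences were not called. WT testes at day 11 were at 150.9% and 74.3% of that mean. Mean bru1 was thus farther from the ovary in the mutant testis than in WT, and mean orb lay below the ovary instead of above it.

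**Figure D3:**
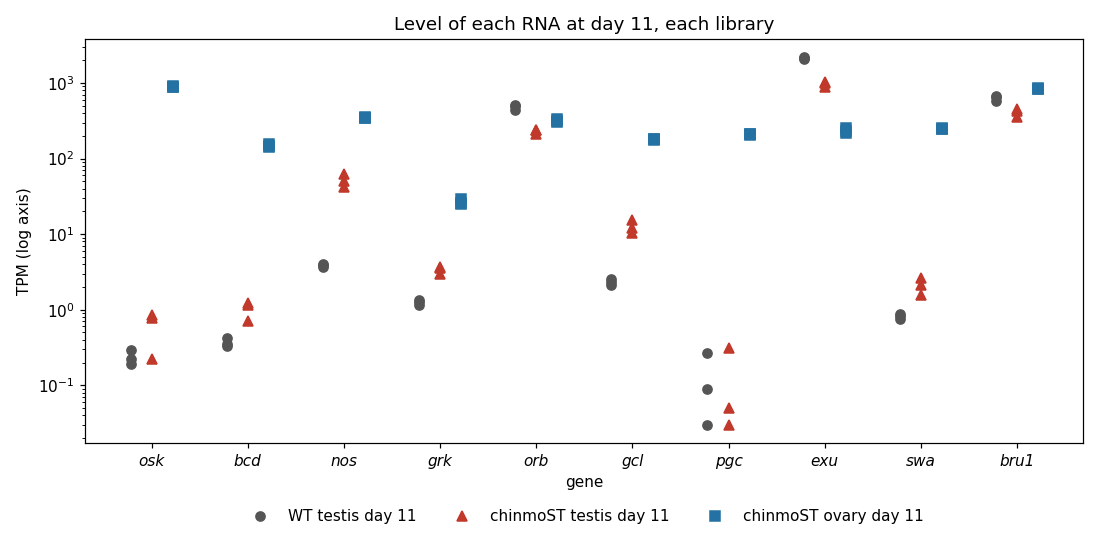
Level of each RNA at day 11 in TPM on a log axis, with a point per library for WT testes (circles), chinmoST testes (triangles) and chinmoST ovaries (squares), n = 3 each. The mutant testes stand between the other groups for nos, grk and gcl, at 41.7 to 62.3 TPM for nos, and next to WT testes for osk and pgc.

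The files also give each gene's mean transcript length in a library, a mean over its annotated transcripts weighted by their estimated abundance, which moves when a gene's transcripts change in proportion. The genes orb, exu and bru1 have 7, 4 and 10 annotated transcripts, and each differed in length between the organs. For exu the mean length was 2624 nt (SD 0.84, n = 18) in WT testes and 2066 nt (SD 52.8, n = 15) in WT ovaries, and for bru1 3435 nt (SD 0.28) and 2685 nt (SD 119). For orb it was 2996 nt (SD 404) in WT testes and 4091 nt (SD 242) in WT ovaries. Libraries with a length trend had the shortest orb means of WT testes and the longest of WT ovaries. No library of the organs overlapped for these 3 genes. The permutation test of 100000 resamples within day gave p = 1.0e-05 for each, the smallest it can give, and an adjusted p of 2.0e-05. The WT ovary library with spermatid markers had the longest exu mean of the ovaries, 2248 nt. Smaller differences were seen for bcd and gcl, by -21.2 nt and -2.15 nt for ovary minus testis (permutation adjusted p = 0.0012 for both), and none was called for nos.

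In chinmoST testes the orb transcripts became longer with age while those of exu and bru1 stayed close to WT. Mean orb length on the 6 days in turn was 3186 nt (SD 61.5, n = 3), 3219 nt (SD 22.2), 3240 nt (SD 22.2), 3309 nt (SD 54.2), 3411 nt (SD 84.6) and 3552 nt (SD 101). The libraries were at 3333, 3399 and 3501 nt at day 9 and at 3660, 3461 and 3535 nt at day 11. WT testes were at 3203, 3183 and 3203 nt at day 11, and at 3208 and 3209 nt in replicates 2 and 3 at day 9. Replicate 1 of WT at day 9, with a length trend, was at 2361 nt, and all 14 WT testis libraries without that trend were at 3183 to 3220 nt. The mutant thus lay above WT in every library of days 9 and 11, by 420 nt on average (exact permutation test within day, two-sided, p = 0.005, the smallest that 400 arrangements allow, adjusted p = 0.015 over 6 genes). Without replicate 1 of either genotype the mean difference was 273 nt (exact permutation adjusted p = 0.083, with fewer arrangements). At day 11 the mutant mean stood between WT testes and chinmoST ovaries, which were at 3979, 4112 and 4118 nt. The chinmoST testes of days 7, 9 and 11 had counts that rose with gene length, at correlations of 0.16 to 0.31. Among WT testes, those whose counts fell with gene length had the shortest orb means, 2151 to 2375 nt. Among WT ovaries such libraries had the longest, 4233 to 4418 nt against at most 4160 nt in the others. In chinmoST ovaries such libraries were at 3020, 3530 and 4109 nt. The part of such trends in the orb difference was not tested.

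For exu the mean length in chinmoST testes at days 9 and 11 was 2624 nt (SD 0.97, n = 6), within 1.05 nt of WT (exact permutation adjusted p = 0.11). For bru1 it was 3436 nt (SD 0.44) against 3435 nt (SD 0.22) in WT, a difference of 1.37 nt whose libraries did not overlap (exact permutation adjusted p = 0.015). Against the organ difference of -749 nt for bru1 this is a change in the last digits. For gcl, nos and bcd the mutant minus WT difference was -2.32, -3.82 and -6.24 nt (exact permutation adjusted p = 0.040, 0.068 and 0.50).

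**Figure D4:**
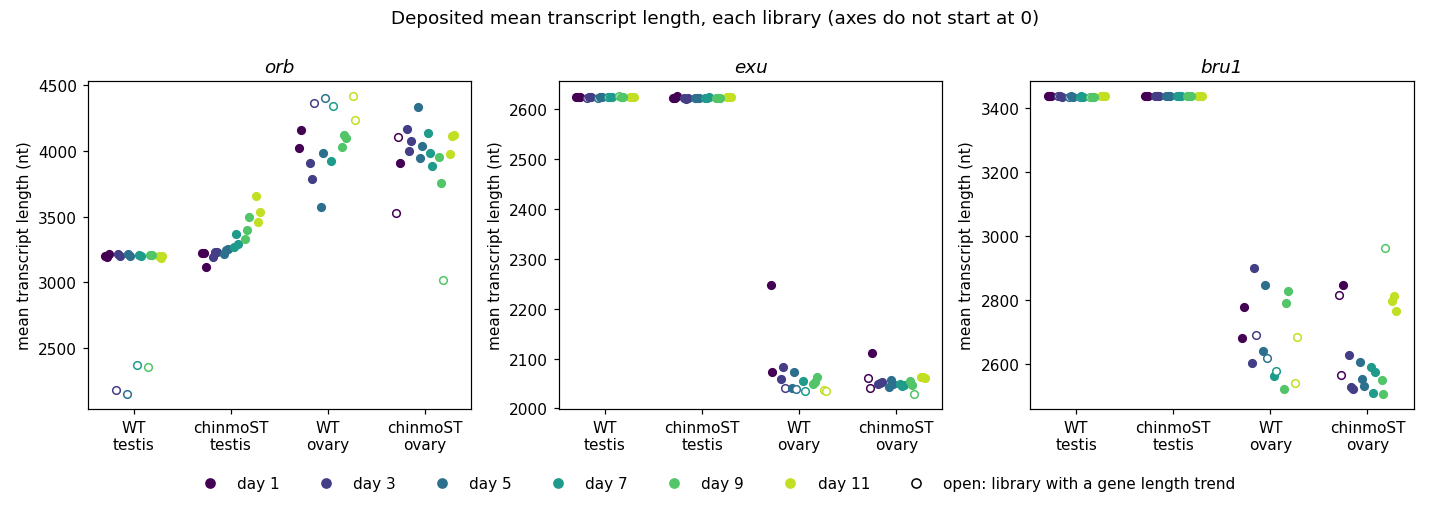
Mean transcript length in nt of orb, exu and bru1 for each library by strain and organ, coloured by day, with open symbols for libraries whose counts fell with gene length; the vertical axes do not start at 0. In chinmoST testes orb rises from 3115 to 3223 nt at day 1 to 3461 to 3660 nt at day 11, while exu and bru1 stay near 2624 and 3435 nt.

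In ovaries the genotypes were compared as a mean over days, and 2 members, nos and pgc, were called lower in chinmoST, where 28.1% of all 11478 genes were called in either direction. None was called higher, and 5 members, nos, pgc, exu, swa and bru1, had an unadjusted edgeR p under 0.05. DESeq2 called 2 members and limma 3. The log2 difference was -1.40 ± 0.32 for nos (edgeR adjusted p = 0.0017) and -0.92 ± 0.23 for pgc (edgeR adjusted p = 0.0030). Both calls were lost without the ovaries of both genotypes that have a length trend, where the nos difference fell under the fold required. Leaving out replicate 3 of every group that has one also ended both. The nos difference was then -0.76 (edgeR adjusted p = 0.064), and that of pgc was -0.57, under the fold required. The pgc call was also lost with limma, at -0.45 (limma adjusted p = 0.057). With the 8 ovary libraries of that kind left out and days 1 to 9 averaged, no member was called, with log2 differences of -0.40 for nos and -0.22 for pgc, while 1385 of all genes were.

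The ovary levels show these libraries plainly. In WT ovaries osk was at 176 to 196 TPM in the 5 libraries with a length trend and at 803 to 1674 TPM in the other 10. The nos RNA went the other way, at 898 to 1390 TPM in those 5 and at 120 to 446 TPM in the other 10, and pgc was at 533 to 659 TPM and 136 to 332 TPM. Levels of orb were 85.3 to 105 TPM against 260 to 466 TPM, and those of grk 10.1 to 11.8 TPM against 23.8 to 55.8 TPM. For these 5 RNAs the sets of libraries did not overlap. The ratio of nos to osk TPM was 4.93 to 7.90 in the 5 libraries and 0.071 to 0.54 in the other 10. Both WT ovaries of day 11 are of this kind, so that no WT ovary without the trend stands at that day. In chinmoST ovaries osk was at 238 to 413 TPM in the 3 libraries with the trend and 881 to 1403 TPM in the other 15, and the nos to osk ratio at 0.18 to 1.03 and 0.082 to 0.40.

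**Figure D5:**
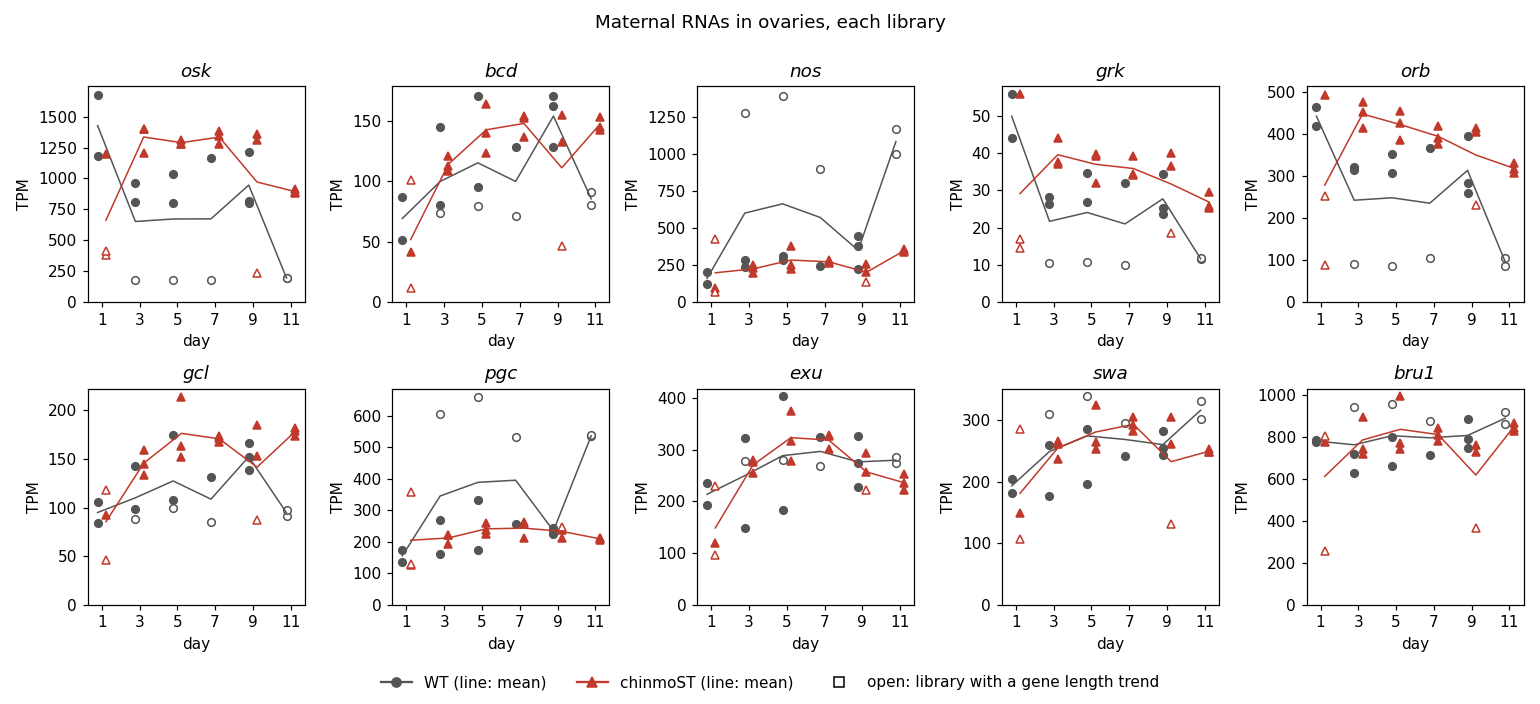
Level in TPM (vertical axes, linear) of each RNA in ovaries against day, with a point per library, circles for WT, triangles for chinmoST, lines for group means and open symbols for libraries whose counts fell with gene length. The open WT symbols are low for osk (176 to 196 TPM), grk and orb and high for nos (898 to 1390 TPM) and pgc.

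Among ovaries without the trend, levels of the axis RNAs overlapped between genotypes. They were 803 to 1674 TPM in 10 WT and 881 to 1403 TPM in 15 chinmoST libraries for osk, 51.5 to 171 TPM and 41.7 to 165 TPM for bcd, 120 to 446 TPM and 97.98 to 379 TPM for nos, and 23.8 to 55.8 TPM and 25.3 to 55.8 TPM for grk. The largest osk level of any ovary, 1674 TPM, was in the WT ovary of day 1 that also held spermatid markers.

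Between days 1 and 3, when egg chambers of young females grow, no member was called in either genotype. In chinmoST ovaries 4.73% of all genes were called in either direction and in WT ovaries 7.81%. In chinmoST, bcd and gcl had an unadjusted edgeR p under 0.05, DESeq2 called none of the members and limma 3, and the log2 change for bcd was 0.85 ± 0.38. In WT, 5 members, nos, grk, gcl, pgc and swa, had an unadjusted edgeR p under 0.05, DESeq2 called 2 and limma none, and the log2 change for nos was 2.50 ± 0.91. Replicates 1 and 2 of chinmoST at day 1 and replicate 3 of WT at day 3 have the length trend. With replicate 3 as the sole chinmoST library of day 1, a library assumed to vary like the others, bcd was called higher at day 3 at 1.27, exu at 0.94, and grk lower at -0.69. With replicate 2 of chinmoST at day 1 left out alone, bcd, gcl and exu were called higher at 1.76, 0.70 and 0.87. For nos and pgc in WT, leaving out replicate 1 or 2 at day 3 brought a call, at 2.93 and 2.91 for nos and at 2.02 and 2.07 for pgc, and without replicate 2 grk was called lower at -1.22. Without replicate 3 at day 3, the library with the trend, the values were 0.87 for nos and 0.61 for pgc, and edgeR called none of all genes.

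Several members share their place with another gene, and since the strand setting of the counting is not given in the sources used here, reads of overlapping genes may not have been told apart. The CG11779 gene lies on the opposite strand over 2641 bases of the nos region and was at 258 to 262 TPM in WT and 128 to 159 TPM in chinmoST testes at day 11, lower where nos was higher. T3dh covers 1873 bases opposite to pgc and was at most 3.12 TPM in testes. A noncoding RNA listed as lncRNA:osk lies within osk over 2680 bases. It was at 252 TPM in replicate 3 of chinmoST ovaries at day 9, where osk was at 238 TPM, and at most 11.3 TPM in all other libraries.

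Other genes of these pathways were counted in testes at day 11, where 32.1% of all genes were called higher and 29.9% lower in chinmoST. Of 20 partners in germ plasm assembly and RNA localization, 15 were called higher and 3 lower, with a median log2 fold change of 1.21 against 0.093 over all genes. The largest rise was that of vas, the germline RNA helicase that Oskar recruits, from at most 13.1 TPM in WT to 86.4 to 127 TPM (log2 2.98 ± 0.22). The largest fall was that of cup, a partner of Bruno 1 in repressing osk translation, at -1.18 ± 0.38. At day 1 none of the 20 was called.

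Of 8 other translational regulators and paralogs, 4 were called higher and 2 lower, beside the same share of all genes, with a median of 0.37. The partner of nanos, pum, was the most raised at 2.45 ± 0.18, and BicC, needed for anterior patterning, the most lowered at -1.40 ± 0.30. Among paralogs, orb2, which acts in spermatids, was lower at -1.20 ± 0.31, bru3 higher at 0.76 ± 0.24, and bru2 stood at -0.02 ± 0.26 and was not called. Of 13 other maternal axis genes, all of which were higher in WT ovaries than in WT testes, 7 were called higher and 1 lower, with a median of 0.84. The trk gene, whose product activates the Torso receptor, rose by 2.84 ± 0.53 from at most 0.29 TPM in WT to 1.62 to 2.84 TPM, and the protease gene snk fell by 2.04 ± 0.35. Of 8 genes of the germline switch and early oogenesis, 7 were called higher and none lower, with a median of 2.22. This list shares bam, bgcn and zpg with the early male germ cell markers summed above, and the partner list shares vas, so these counts are not separate from that sum. The ovo gene, a germline transcription factor of the female, rose by 5.11 ± 0.58 to 12.9 to 20.5 TPM, and spn-E, a helicase of the piRNA pathway, by 1.33 ± 0.24.

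Across the means of the 24 groups, on log2(TPM + 1), 7 members followed each other closely and orb, exu and bru1 each differed from them. Pearson's r was 0.910 to 0.996 between any of osk, bcd, nos, grk, gcl, pgc and swa, which share the step between organs. It was -0.97 to -0.94 between exu and these 7, and -0.66 to -0.34 between orb and them. For bru1 r was 0.47 to 0.66 with the 7, -0.50 with exu and -0.03 with orb. The genes most like osk among 13395 were clos, yl and fs(1)M3, with r of 0.997 to 0.998. Those most like nos were dwg, Bap60 and Snx17, and those most like gcl were Chpf, tos and Nadsyn, all with r of 0.997 to 0.998. The gene most like bru1 was BicC, with r of 0.85, and the gene most like orb was Treh, with 0.92. For exu it was CG5276, with 0.995. The points share the organ difference, and no test was made of these values.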

How the data were processed

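Poly(A) RNA of pooled testes or ovaries was sequenced in 69 libraries as paired reads of 100 bases. According to the submitters' processing notes reads were checked with FastQC 0.11.9, trimmed with Trim Galore 0.6.4, and quantified with RSEM and Bowtie2 on dm6, with the versions of these 2 tools and the annotation not given in the sources used here. For each library the authors deposited expected counts per gene, TPM and FPKM (not used here), and mean and effective transcript lengths in nt. Expected counts were rounded to whole numbers and fitted in edgeR 4.0.16 (R 4.3.3) by the quasi-likelihood test, with edgeR's expression filter, TMM scaling, 1 coefficient per group and Benjamini-Hochberg adjustment over all genes tested. Alternatives used DESeq2 1.42.0, and limma 3.58.1 on log2(TPM + 1). The step was tested on simulated data. Transcript lengths, for genes with at least 10 counts, were compared by permutation within day (numpy 2.4.6). The depth of 32462418 to 181988641 counts limits osk and pgc in testes most.

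Groups came from the strain, tissue and time labels. The members and gene lists were chosen with earlier results of these data known. All 10 members were named in every comparison. A list gene was named where it had the largest rise or fall at day 11 in testes, or the largest and smallest where all moved one way, with the paralogs of orb and bru1 and the 3 genes most like a member in pattern. The fit without libraries that have a length trend (r under -0.35) was chosen after seeing the data. Replicate numbers did not pair the genotypes within a day.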

Additional observations from a re-analysis of the deposited data

Results flagged for a closer look

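The difference between chinmoST and WT testes was larger at day 11 than at day 1 for 6 members, by edgeR's test of the difference itself. On the log2 scale it moved by 3.25 for nos, 2.29 for gcl, 1.64 for grk and 1.24 for bcd, and by -1.61 for exu and -1.19 for orb.

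Among mean transcript lengths, 12 groups of 6 testis libraries (days 9 and 11 of a genotype together, for 6 genes) were tested for a library far from the rest. Such a library was found in 3 of them, where chance gives about 1 in 20. For orb, replicate 1 of WT testes at day 9 was at 2361 nt and the other 5 at 3183 to 3209 nt. For gcl the same library was at 2464 nt and the others at 2467 to 2469 nt. It is one of the libraries whose counts fell with gene length. For bcd, replicate 2 of WT testes at day 11 was at 2483 nt and the others at 2522 to 2530 nt.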

How the results depend on the processing

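At day 11 in testes nos, grk, orb, gcl, exu and swa kept their calls under 15 of 15 alternatives, bcd under 14 (not with limma) and bru1 under 8. Counts of all genes called moved as follows. For testis genotype it was 835 at day 1 and 513 to 778 with a replicate left out, 2853 at day 3 against 1867 with limma and 1133 with only the groups compared, and 4154 at day 5 against 742 with only the groups compared. For WT testes, day 11 against day 1, it was 102, and 334 with DESeq2, 634 with only the groups compared and 32 to 67 with a replicate left out. For ovary genotype it was 3228, and 4888 by adjusted p alone, 1349 with limma, 1385 without the libraries with a length trend and 1443 to 4087 with a replicate left out. For chinmoST ovaries, day 3 against day 1, it was 543, and 173 without the filter, 1612 with DESeq2, 1445 with limma, 1 with only the groups compared, 1435 without the libraries with a length trend and 1 to 1935 with a replicate left out. For WT ovaries, day 3 against day 1, it was 896, and 1419 without the filter, 1441 with gene length correction, 1952 with DESeq2, 1413 with limma, 0 with only the groups compared and 0 to 2478 with a replicate left out. Of 6 genes, 3 differed in transcript length between testes, 1 by effective length and 0 with a replicate left out, where fewer arrangements remain. Over all members, comparisons and alternatives, 66 values gained and 50 lost a call. Values that changed direction and were called there or before, or whose length difference had been called, were grk in chinmoST ovaries, day 3 minus day 1, at -0.69 without the libraries with a length trend, bru1 in WT ovary minus testis at -0.97 with DESeq2 and -0.88 without those libraries, and gcl length between WT organs at 2.56 nt by effective length. Without those libraries uncalled values for chinmoST ovaries, day 3 minus day 1, also changed sign, to 1.00 from -0.14 for nos, -0.26 from 0.47 for orb, 0.48 from -0.32 for pgc and -0.03 from 0.69 for osk. Other uncalled values near 0 changed sign too. Except where a library or its absence is named, the cause was not tested. With the replicate block the testis count at day 11 was 9403 against 9255, and no member's call changed. Deviations of WT and chinmoST testis libraries with the same number and day had a mean correlation of 0.022 (range -0.42 to 0.31). The numbers thus do not pair the genotypes within a day. Whether a number stands for a shared preparation across days was not tested. Replicate 1 of WT testes had the length trend at days 3, 5, 7 and 9. The planned search of promoters for motifs was not run.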
